A study of Sus scrofa with 14 samples.

Results

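Inner zone P3 cells were compared with inner zone tissue of the pig medial meniscus in 6 of the 14 RNA-seq libraries of the series. P3 cells (replicates 147, 148 and 149) were cells freed by pronase and collagenase from the inner part of the medial meniscus and grown in monolayer to the third passage. Inner zone tissue (replicates 2, 3 and 5) was punched from the same part of the meniscus, kept as an intact explant for 3 days in the same serum-containing medium and then frozen. All pigs were skeletally mature females of 2 to 3 years, and no genotype or treatment was varied. The 6 libraries were chosen by their labels alone, and no measured value was used. The tissue explants were taken at differing positions along the horns and the midbody, and the cells were not from the same donors as the tissue. The labels do not tie a library to an animal or a position. Each p-value therefore reflects the scatter within the groups of the 14 libraries fitted and no more. That scatter may in part be technical. RNA of the tissue was released by freezer milling in TRIzol and then cleaned on a column, whereas cell pellets went to the column directly. Passaging, digestion and RNA extraction therefore changed together and cannot be told apart. In bulk libraries, fewer cells of a type and less RNA per cell cannot be told apart either.

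The inner zone of the meniscus is its avascular, compressed part. Its fibrochondrocytes lie in a matrix that mixes the collagen II and aggrecan of cartilage with the fibrous collagen I of ligament, and meniscus cells are isolated and expanded in monolayer to obtain enough of them for tissue engineering. In chondrocytes spread on plastic, SOX9-driven cartilage genes are known to decline while actin filaments assemble, which releases the coactivators MRTF and YAP to drive contractile and fibrous matrix genes. Explanted cartilage and meniscus, in turn, are known to answer cutting and inflammatory signals with NF-kB-driven acute phase proteins, chemokines and proteases.

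Each library held between 28541587 and 43304412 reads counted in genes, and 15707 genes with at least 10 reads over the 14 libraries were tested. Levels are given as CPM, read counts brought to a common library size and scaled by the trimmed mean of M values (TMM), and listed for P3 cells in the order 147, 148, 149 and for tissue in the order 2, 3, 5. Fold changes are log2 of P3 cells over tissue with their SE from the quasi-likelihood fit of edgeR, and p-values were adjusted by Benjamini-Hochberg over all tested genes. Where leaving out 1 library moved a fold change given for a called gene by more than 1.5-fold, the log2 fold change without that library is given with it. A gene was called differentially expressed (a DEG) at an adjusted p under 0.01 and a change over 2-fold. By this rule 4033 genes (25.7%) were DEGs, of which 2137 (13.6% of the tested genes) were higher and 1896 (12.1%) lower in P3 cells. These shares over all tested genes are the background for each count of list members below. The median log2 fold change of all tested genes was 0.01. The levels of the groups did not overlap in 9837 genes (62.6%), being higher in P3 cells throughout in 33.4% of the tested genes and lower in 29.2%. More than 4-fold changes were called in 1096 genes higher and 925 genes lower in P3 cells.

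Replicates were closer to each other than to the other group. Spearman correlations over genes, given as a description of libraries that share their gene lengths, were 0.986 to 0.992 between P3 libraries, 0.976 to 0.984 between tissue libraries and 0.869 to 0.903 between P3 and tissue libraries. The biological coefficient of variation was 0.199 in P3 cells and 0.304 in tissue. Inner tissue replicate 3 stood apart from the other tissue replicates, with lower levels of cartilage matrix genes such as COL2A1 and MGP and higher levels of SAA3, CCL20 and MMP13. Without it 4001 genes were called. The 10 most abundant genes took 26.5% to 28.1% of the reads of P3 cells, against 15.9% to 22.4% of those of tissue.

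**Figure D1:**
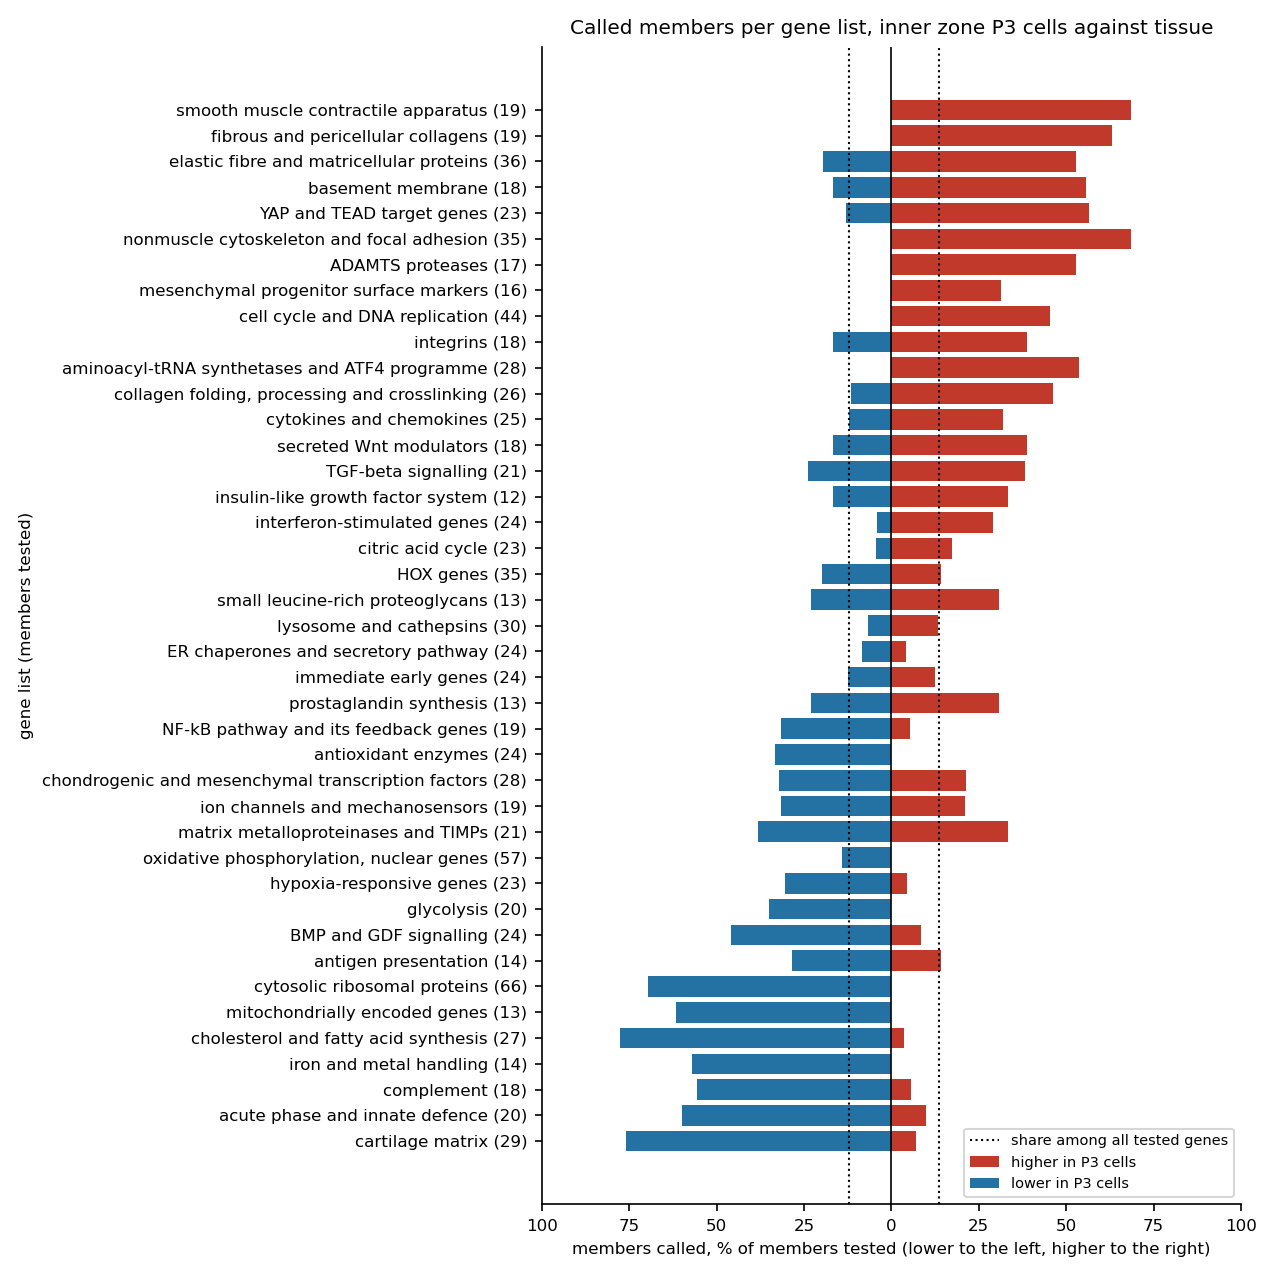
Share of the tested members of each gene list (number of members in parentheses) that was called higher (bars to the right, in %) or lower (bars to the left, in %) in inner zone P3 cells than in inner zone tissue, with dotted lines at the shares over all tested genes (13.6% higher, 12.1% lower). Of the smooth muscle contractile list 13 of 19 members were higher and none was called lower, while 22 of 29 cartilage matrix members were lower.

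Genes of the cartilage matrix were lower in P3 cells, in 22 of the 29 members tested, while 2 members were higher and 5 were not called (background 12.1% lower, 13.6% higher). The median log2 fold change of the list was -5.51, and its summed level was 5517 to 6315 CPM in P3 cells, against 23026 to 70739 CPM in tissue. COL2A1, which encodes the collagen of hyaline cartilage (Sscrofa11.1 chromosome 5, 78350131-78380893), had 29.1, 34.8 and 7.60 CPM in P3 cells, against 9492, 1613 and 16762 CPM in tissue (log2 fold change -8.61 ± 1.19, adjusted p = 7.08e-05, -7.86 without tissue 5). Tissue replicate 3 held the lowest of the tissue values, yet it lay far above all P3 libraries. ACAN, the aggregating proteoglycan aggrecan (chromosome 7, 54449830-54520606), reached 401, 207 and 375 CPM in P3 cells, against 8487, 3086 and 10879.6 CPM in tissue (log2 fold change -4.51 ± 0.55, adjusted p = 2.76e-05). The link protein HAPLN1, which fixes aggrecan to hyaluronan, had 61.8, 48.6 and 14.2 CPM in P3 cells, against 4268, 1160.3 and 4448 CPM in tissue (log2 fold change -6.31 ± 0.76, adjusted p = 2.61e-05). In neither gene did the groups overlap.

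Among the other cartilage matrix members the called log2 fold changes ranged from -1.21 (MATN2, matrilin 2) to -11.63 (CLEC3A). COMP, a pentameric thrombospondin that binds collagen, had 497, 495 and 1082 CPM in P3 cells, against 13168, 10621 and 17635 CPM in tissue (log2 fold change -4.32 ± 0.41, adjusted p = 4.68e-06), and MGP, the inhibitor of calcification matrix Gla protein, had 188, 251 and 61.9 CPM in P3 cells, against 17885, 2978 and 11191 CPM in tissue (log2 fold change -6.00 ± 0.92, adjusted p = 0.000153). Both were still among the detected genes of P3 cells. Other members were almost silent there. CLEC3A, a cartilage C-type lectin, had 0.158, 0.0692 and 0.214 CPM in P3 cells, against 833, 60.7 and 528 CPM in tissue (log2 fold change -11.63 ± 1.33, adjusted p = 1.76e-05, -10.96 without tissue 2). C2orf82, now named SNORC, a chondrocyte transmembrane proteoglycan, had 0.285, 0.807 and 0.238 CPM in P3 cells, against 763, 126 and 886 CPM in tissue (log2 fold change -10.34 ± 1.27, adjusted p = 2.95e-05, -11.13 without P3 148). CILP, cartilage intermediate layer protein, had 2.31, 1.61 and 1.17 CPM in P3 cells, against 1139.5, 240.1 and 1051 CPM in tissue (log2 fold change -8.91 ± 0.75, adjusted p = 2.12e-06). All 3 of these genes were at or below 2.31 CPM in every P3 library.

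The members of the cartilage collagen fibril did not move together. Collagen II fibrils carry collagen XI within them and collagen IX on their surface. COL11A2, the alpha-2 chain of collagen XI (chromosome 7, 25204496-25234880), had 0.253, 0.507 and 0.238 CPM in P3 cells, against 879.9, 292 and 1358 CPM in tissue (log2 fold change -11.27 ± 1.05, adjusted p = 4.14e-06), whereas COL11A1, its alpha-1 chain, had 4528, 4656 and 3428 CPM in P3 cells, against 657, 251 and 829 CPM in tissue (log2 fold change 2.86 ± 0.44, adjusted p = 0.000166). The chains of 1 collagen thus went in opposite directions, with no overlap in either. The collagen IX chains COL9A1, COL9A2 and COL9A3 were all called lower, at log2 fold changes of -8.27 ± 1.33, -2.87 ± 0.72 and -5.51 ± 0.81 (-7.36 without tissue 5 for COL9A1 and -6.19 without P3 149 for COL9A3). The call of COL9A2 was lost without P3 147, 148 or 149 or tissue 2 or 5 (adjusted p = 0.0104 to 0.0225, edgeR), and that of MATN2 without P3 148 or 149 or tissue 3 or 5 (0.0111 to 0.0172). THBS3, a thrombospondin of skeletal tissue, was the other member called higher, with 290.3 to 351 CPM in P3 cells, against 4.59 to 8.83 CPM in tissue. MATN4, CNMD, COL10A1, UCMA and MATN3 were not called, and each but MATN4 was below 1 CPM in all 6 libraries.

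**Figure D2:**
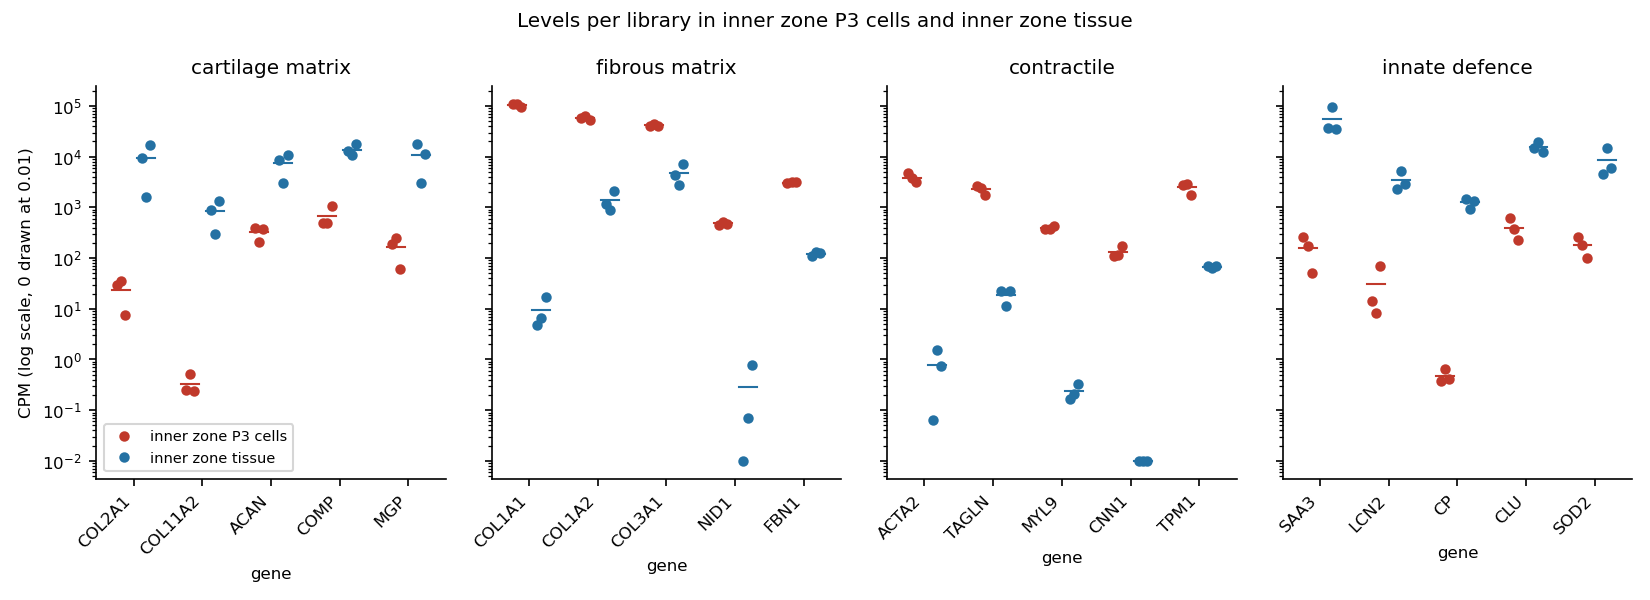
Level of 20 genes in each library, in CPM on a log scale (0 drawn at 0.01), with inner zone P3 cells in red at the left of each gene and inner zone tissue in blue at the right, a point for each of the 3 libraries and a line at the mean. Cartilage matrix and innate defence genes lay lower in P3 cells, fibrous matrix and contractile genes lay higher, and the groups did not overlap in any of the 20 genes. The 20 genes were picked with earlier results of these data known, and the groups did not overlap in 62.6% of all tested genes.

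The transcription factors of chondrocytes and mesenchyme were split, with 6 of 28 higher, 9 lower and a median log2 fold change of -0.45. SOX9, which switches on COL2A1 and ACAN, had 51.9, 50.2 and 55.8 CPM in P3 cells, against 191, 84.5 and 196 CPM in tissue (log2 fold change -1.58 ± 0.38, adjusted p = 0.00389). The fall in SOX9 was about 3-fold, less than that of COL2A1 or ACAN, and its call was lost without P3 147, 148 or 149 or tissue 2 or 5 (adjusted p = 0.0127 to 0.0167, edgeR). Its partner SOX5 had 8.83, 7.50 and 4.96 CPM in P3 cells, against 78.02, 40.95 and 55.6 CPM in tissue (log2 fold change -3.04 ± 0.28, adjusted p = 3.7e-06), whereas SOX6, the other partner, had 18.4, 17.5 and 15.7 CPM in P3 cells, against 23.5, 20.4 and 24.2 CPM in tissue and was not called (adjusted p = 0.0164). TRPS1, FOXC1, FOXC2 and FOXO3 were lower as well, at log2 fold changes of -2.13 ± 0.20, -2.09 ± 0.21, -2.59 ± 0.29 and -1.85 ± 0.23. Factors of mesenchyme and tendon were among those that rose. PRRX1, a marker of limb mesenchyme, had 1372, 1361 and 1373 CPM in P3 cells, against 433, 561 and 420.4 CPM in tissue (log2 fold change 1.54 ± 0.18, adjusted p = 2.21e-05), MKX, a tendon factor, had a log2 fold change of 1.05 ± 0.19 (0.96 without P3 147 and 0.95 without tissue 3, under the limit), and ZEB2, a repressor of epithelial genes, had 99.4, 106 and 94.1 CPM in P3 cells, against 4.52, 10.8 and 9.25 CPM in tissue (log2 fold change 3.61 ± 0.47, adjusted p = 4.91e-05). The tendon factor SCX had 12.5, 13.7 and 12.04 CPM in P3 cells, against 7.74, 11.14 and 5.10 CPM in tissue and was not called (adjusted p = 0.0947).

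BMP and GDF signalling, which supports chondrocyte differentiation and joint formation, was represented by 24 tested genes, 11 lower and 2 higher, with a median log2 fold change of -1.21. The ligand GDF5, which marks the joint interzone in development, had 0, 0.0461 and 0 CPM in P3 cells, against 52.8, 22.6 and 52.2 CPM in tissue, and BMP7 had 0, 0.0692 and 0 CPM in P3 cells, against 14.6, 18.3 and 7.28 CPM in tissue. Only 2 reads of GDF5 and 3 of BMP7 were counted in P3 cells. BMP2 had 1.84, 1.96 and 0.858 CPM in P3 cells, against 232, 37.6 and 165 CPM in tissue (log2 fold change -6.55 ± 1.01, adjusted p = 0.000163), and BMP6 fell by 1.48 on the log2 scale. Among the secreted antagonists NBL1 had 234, 219 and 120.0 CPM in P3 cells, against 2935, 3773 and 2313 CPM in tissue (log2 fold change -3.98 ± 0.34, adjusted p = 2.26e-06), while CHRDL1 had 18.6, 27.7 and 22.1 CPM in P3 cells, against 0.260, 0.280 and 0.0910 CPM in tissue (log2 fold change 6.76 ± 1.03, adjusted p = 0.00015). The antagonists therefore moved in both directions. ID1 and ID3, direct targets of BMP receptors, were also split, with log2 fold changes of -1.54 ± 0.24 and 1.36 ± 0.25.

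The fibrous and pericellular collagens rose in P3 cells, in 12 of 19 members with none called lower, and their median log2 fold change was 3.28. Their summed level was 222690 to 246080 CPM in P3 cells, against 11825 to 21892 CPM in tissue. COL1A1, the alpha-1 chain of collagen I (chromosome 12, 26379087-26397180), had 107937, 110523 and 97321 CPM in P3 cells, against 4.88, 6.52 and 17.3 CPM in tissue (log2 fold change 13.43 ± 1.02, adjusted p = 1.06e-06, 14.17 without tissue 5). COL1A2, the alpha-2 chain (chromosome 9, 74174484-74210407), had 56897, 62606 and 53227 CPM in P3 cells, against 1193, 898 and 2101 CPM in tissue (log2 fold change 5.36 ± 0.52, adjusted p = 5.16e-06). Collagen I is built from a pair of alpha-1 chains and a single alpha-2 chain, and both genes were higher in every P3 library than in every tissue library.

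The chains of collagen I changed by very different amounts. The ratio of COL1A1 reads to COL1A2 reads was 1.90, 1.77 and 1.83 in P3 cells, against 0.00409, 0.00725 and 0.00822 in tissue. Within a library this ratio does not depend on depth, and between libraries it does not depend on gene length. COL1A1 thus had fewer reads than COL1A2 in tissue by more than 100-fold and more in P3 cells.

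Other fibrous collagens rose as well. COL3A1, the collagen of reticular fibres, had 40211, 43589 and 40366 CPM in P3 cells, against 4406, 2793 and 7152 CPM in tissue (log2 fold change 3.11 ± 0.46, adjusted p = 0.00011). COL5A1 and COL5A2, which set the diameter of collagen I fibrils, had log2 fold changes of 3.90 ± 0.31 and 3.40 ± 0.30, and COL5A3, their rarer partner, had 74.5, 91.3 and 94.8 CPM in P3 cells, against 0.358, 0.140 and 0.182 CPM in tissue (log2 fold change 8.55 ± 0.97, adjusted p = 1.67e-05). COL8A1, a short-chain collagen of vessel walls and cornea, had 695, 618 and 603 CPM in P3 cells, against 1.92, 5.57 and 5.70 CPM in tissue (log2 fold change 7.18 ± 0.42, adjusted p = 3.78e-07). COL12A1, which sits on fibril surfaces, had 1325 to 1456 CPM in P3 cells, against 59.1 to 86.6 CPM in tissue. Collagen VI, the pericellular collagen, was again uneven. COL6A1 had 7248, 7385 and 9297 CPM in P3 cells, against 2049.7, 2503 and 2239 CPM in tissue (log2 fold change 1.82 ± 0.28, adjusted p = 0.000154), while COL6A3 had 5458, 4281 and 3814 CPM in P3 cells, against 3777, 4181 and 8293 CPM in tissue with overlapping groups (adjusted p = 0.522).

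Enzymes that fold and crosslink collagen rose in part, with 12 of 26 higher and 3 lower (background 13.6% higher, 12.1% lower). The share of lower members was near the background. SERPINH1, the collagen chaperone, had 1641, 1424 and 1299 CPM in P3 cells, against 395, 306 and 555 CPM in tissue (log2 fold change 1.80 ± 0.23, adjusted p = 3.49e-05), and FKBP10, a prolyl isomerase of procollagen, had a log2 fold change of 2.03 ± 0.18. LOXL2, a lysyl oxidase-like crosslinking enzyme, had 1747, 1723 and 972 CPM in P3 cells, against 57.2, 44.3 and 79.3 CPM in tissue (log2 fold change 4.62 ± 0.35, adjusted p = 1.02e-06), whereas LOX itself had 1638, 1528 and 1204 CPM in P3 cells, against 1619.5, 543 and 913 CPM in tissue and was not called (adjusted p = 0.346). The prolyl hydroxylase subunit P4HA1 had overlapping levels and was not called either (adjusted p = 0.731). TGM2, transglutaminase 2, which crosslinks proteins through glutamine, was the largest fall of the list with 3.80, 2.65 and 3.22 CPM in P3 cells, against 508, 218 and 431 CPM in tissue (log2 fold change -6.91 ± 0.54, adjusted p = 1.15e-06).

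Among basement membrane genes 10 of 18 were higher and 3 lower (background 13.6% higher, 12.1% lower), the lower share being near that of all tested genes. NID1, which links laminin to collagen IV (chromosome 14, 55239327-55346948), had 456, 518 and 472 CPM in P3 cells, against 0, 0.0701 and 0.789 CPM in tissue (log2 fold change 10.64 ± 1.12, adjusted p = 9.31e-06, 10.05 without tissue 2 and 13.65 without tissue 5). COL4A2, a chain of collagen IV itself, had 1044, 1469 and 1597 CPM in P3 cells, against 4.98, 4.52 and 11.2 CPM in tissue (log2 fold change 7.63 ± 0.98, adjusted p = 4.08e-05). Laminin chains were exchanged in part. LAMB1 and LAMA4 rose, with log2 fold changes of 4.08 ± 0.39 and 1.99 ± 0.30, while LAMB3, a chain of epithelial laminin, fell, with 0.184 to 0.253 CPM in P3 cells, against 6.83 to 50.6 CPM in tissue. LAMA3, another chain of epithelial laminin, went the other way, with 4.43, 2.68 and 4.86 CPM in P3 cells, against 0.163, 0.0350 and 0.121 CPM in tissue (log2 fold change 5.16 ± 0.65, adjusted p = 3.49e-05).

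The small leucine-rich proteoglycans, which coat collagen fibrils, were split, with 4 of 13 higher and 3 lower and a median of 0.10. DCN, decorin, had 583, 724 and 563 CPM in P3 cells, against 4138, 5379 and 3989.8 CPM in tissue (log2 fold change -2.85 ± 0.29, adjusted p = 7.45e-06). FMOD, fibromodulin, had 3400.0, 3191 and 3233 CPM in P3 cells, against 10406, 7849 and 12376 CPM in tissue (log2 fold change -1.64 ± 0.35, adjusted p = 0.00161) and PRELP a log2 fold change of -2.21 ± 0.40. ASPN, asporin, a close relative of decorin, went the opposite way, with 989.8, 905 and 835 CPM in P3 cells, against 1.85, 7.74 and 3.09 CPM in tissue (log2 fold change 7.75 ± 0.91, adjusted p = 2.05e-05, 8.52 without tissue 3). BGN, biglycan, and LUM, lumican, had overlapping groups and were not called (adjusted p = 0.378 and 0.673).

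Elastic fibre and matricellular genes rose more often than they fell, with 19 of 36 higher and 7 lower (median 2.05). FBN1, the microfibril protein fibrillin-1, had 2994, 3126 and 3152 CPM in P3 cells, against 109, 132 and 127 CPM in tissue (log2 fold change 4.65 ± 0.29, adjusted p = 4.7e-07), and ELN, elastin, had 935, 649 and 597 CPM in P3 cells, against 50.1, 12.1 and 48.5 CPM in tissue (log2 fold change 4.30 ± 0.57, adjusted p = 5.06e-05). MFAP5, a microfibril-associated protein, had 3.10, 3.99 and 6.91 CPM in P3 cells, against 0 CPM in all 3 tissue libraries. With no tissue read, MFAP5 was at least 148-fold higher in P3 cells, measured against 3 reads over the tissue group. Abundant matricellular proteins were higher too, among them SPARC, THBS1 and TNC, with log2 fold changes of 2.09 ± 0.44, 2.59 ± 0.48 and 2.13 ± 0.34. FN1, fibronectin, went down instead, with 6292, 5156 and 4642 CPM in P3 cells, against 20284, 21409.5 and 11818 CPM in tissue (log2 fold change -1.73 ± 0.43, adjusted p = 0.00465), its call being lost without P3 147, 148 or 149 or tissue 2 or 3 (adjusted p = 0.0118 to 0.02, edgeR). SPP1, osteopontin, fell too, with 380.2, 310.1 and 108 CPM in P3 cells, against 9449.8, 11305 and 11323 CPM in tissue (log2 fold change -5.33 ± 0.52, adjusted p = 5.46e-06). FSTL1, a secreted follistatin-like glycoprotein, had 1836, 1471 and 1409.8 CPM in P3 cells, against 284, 341 and 393 CPM in tissue (log2 fold change 2.21 ± 0.29, adjusted p = 4.31e-05).

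The contractile apparatus of smooth muscle showed the highest median of all lists, 5.14, with 13 of 19 members higher and none called lower. The summed level of the list was 11657 to 15294 CPM in P3 cells, against 451 to 522 CPM in tissue. ACTA2, alpha smooth muscle actin (chromosome 14, 100868145-100886732), had 4683, 3788 and 3207 CPM in P3 cells, against 0.0650, 1.54 and 0.728 CPM in tissue (log2 fold change 12.30 ± 1.13, adjusted p = 3.76e-06, 13.22 without tissue 3). TAGLN, the actin-binding protein transgelin (chromosome 9, 44561756-44567385), had 2612, 2465 and 1739 CPM in P3 cells, against 22.4, 11.5 and 22.7 CPM in tissue (log2 fold change 6.91 ± 0.53, adjusted p = 1.15e-06). MYL9, the regulatory light chain of myosin (chromosome 17, 39788165-39795240), had 373, 372 and 428 CPM in P3 cells, against 0.163, 0.210 and 0.334 CPM in tissue (log2 fold change 10.66 ± 0.85, adjusted p = 1.35e-06). In each of these genes the lowest P3 library exceeded the highest tissue library by more than 50-fold.

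CNN1, calponin 1, was found in P3 cells alone, with 109, 117 and 170.0 CPM in P3 cells, against 0 CPM in all 3 tissue libraries, which makes it at least 4123-fold higher in P3 cells against 3 reads over the tissue group. ACTG2, the actin of visceral muscle, had 31.3, 57.6 and 42.6 CPM in P3 cells, against 0.0325, 0.0701 and 0.0607 CPM in tissue (log2 fold change 9.56 ± 0.88, adjusted p = 3.81e-06), and LMOD1, which nucleates actin in smooth muscle, had 87.5, 96.7 and 117 CPM in P3 cells, against 0.911, 0.210 and 0.243 CPM in tissue (log2 fold change 7.77 ± 0.87, adjusted p = 1.49e-05, 8.74 without tissue 2). The tropomyosin TPM1 and the caldesmon CALD1, both of which bind along the filament, rose by log2 fold changes of 5.20 ± 0.27 and 5.14 ± 0.36. The heavy chain of differentiated smooth muscle, MYH11, had 2.31, 3.51 and 9.96 CPM in P3 cells, against 0.0976, 0.350 and 0.941 CPM in tissue and was not called by edgeR (adjusted p = 0.0322), though DESeq2 called it (adjusted p = 0.00669). MYOCD, the smooth muscle coactivator of SRF, had 2.37, 2.10 and 0.667 CPM in P3 cells, against 0 CPM in all 3 tissue libraries, a level at least 51.04-fold higher in P3 cells on the same floor. The median of the list was the same with the members at 0 in tissue set to their lower bound.

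The promoter of MYL9 is shown because this gene rose steeply and its window holds the CArG box, the element bound by SRF with its MRTF and myocardin coactivators. It was chosen after its values were seen. The window runs from 250 bases before to 50 bases after the annotated gene start and was read from RefSeq sequence of Sscrofa11.1, with the CArG box in capitals (chr17:39787915-39788214, plus strand).
MYL9: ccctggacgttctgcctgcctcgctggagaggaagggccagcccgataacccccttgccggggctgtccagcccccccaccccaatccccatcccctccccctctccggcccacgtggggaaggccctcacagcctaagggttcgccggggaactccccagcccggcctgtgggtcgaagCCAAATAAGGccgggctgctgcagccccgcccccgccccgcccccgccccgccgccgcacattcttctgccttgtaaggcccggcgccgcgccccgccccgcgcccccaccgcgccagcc
The box began 70 bases before the gene start. On both strands the box was found in 298 of 19509 promoters read (1.53%), in 34 of 1946 genes higher in P3 cells (1.75%), in 25 of 1581 genes lower in P3 cells (1.58%) and in 2 of 19 members of the smooth muscle list. A match of letters is a description and says nothing about binding in these cells.

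The cytoskeleton shared by all cells rose along with the contractile genes. Of 35 nonmuscle cytoskeletal and focal adhesion genes 24 were higher and none was called lower (median 1.67). VIM, the intermediate filament vimentin, had 6926, 6284 and 5493 CPM in P3 cells, against 1087, 946 and 1219 CPM in tissue (log2 fold change 2.52 ± 0.32, adjusted p = 3.58e-05), FLNA, the actin crosslinker filamin A, had 5365, 5185 and 4384 CPM in P3 cells, against 408, 873 and 504 CPM in tissue (log2 fold change 3.06 ± 0.32, adjusted p = 9.48e-06), and the common actins ACTB and ACTG1 rose by log2 fold changes of 1.82 ± 0.26 and 1.45 ± 0.21. VCL, vinculin, which couples adhesions to actin, had 642, 644 and 456 CPM in P3 cells, against 59.9, 60.99 and 56.5 CPM in tissue (log2 fold change 3.30 ± 0.26, adjusted p = 1.15e-06). The increases in this list were smaller than those of ACTA2 or MYL9, and several members, such as CFL1, CAPZB and TPM3, were not called. The coactivator MKL1, also named MRTFA, rose by 1.72 on the log2 scale, and SRF had a log2 fold change of 0.86, under the 2-fold limit (adjusted p = 0.000718) but over it without tissue 3 (1.04).

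Targets of YAP and TEAD were higher in 13 of 23 and lower in 3, AMOTL1, TGFB2 and FJX1 (median 1.72). The lower share was near the 12.1% of all tested genes, of which 13.6% were higher. CRIM1, among the most abundant members, had overlapping groups and was not called. CTGF, now named CCN2, had 997, 992 and 499 CPM in P3 cells, against 90.1, 90.1 and 97.9 CPM in tissue (log2 fold change 3.16 ± 0.36, adjusted p = 1.62e-05), CYR61, now CCN1, had 626, 639 and 471 CPM in P3 cells, against 199, 69.2 and 159 CPM in tissue (log2 fold change 2.02 ± 0.45, adjusted p = 0.00241), and AMOTL2 had 815, 911 and 722 CPM in P3 cells, against 39.2, 59.1 and 54.8 CPM in tissue (log2 fold change 4.00 ± 0.18, adjusted p = 1.09e-07). The coactivators themselves were not called with all libraries. YAP1 had 110.0, 106 and 102 CPM in P3 cells, against 92.5, 154 and 104 CPM in tissue and WWTR1, which encodes TAZ, had 75.7, 66.2 and 68.2 CPM in P3 cells, against 143, 75.3 and 145 CPM in tissue, WWTR1 being called lower without tissue 3 (-1.04, adjusted p = 0.00118, edgeR). TEAD1, their DNA-binding partner, rose with a log2 fold change of 2.31 ± 0.13.

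Integrins, the receptors through which cells grip the matrix, were higher in 7 of 18 and lower in 3 (background 13.6% higher, 12.1% lower). The share of lower members was near that of all tested genes. ITGA8, a receptor chain for fibronectin and nephronectin (chromosome 10, 46132887-46303659), had 517, 485 and 469 CPM in P3 cells, against 0 CPM in all 3 tissue libraries. It was at least 15000.0-fold higher in P3 cells against 3 reads over the tissue group, the largest difference in that direction among the genes with 10 CPM or more. ITGA11, a collagen I receptor of fibroblasts, had 322, 305 and 299 CPM in P3 cells, against 3.35, 4.55 and 9.95 CPM in tissue (log2 fold change 5.69 ± 0.55, adjusted p = 5.34e-06, 6.29 without tissue 5). ITGA10, the collagen II receptor of chondrocytes, went the other way with 24.7, 37.6 and 27.98 CPM in P3 cells, against 405, 294 and 357 CPM in tissue (log2 fold change -3.55 ± 0.26, adjusted p = 8.74e-07), and ITGA6, a laminin receptor, fell as well (-2.46 ± 0.38). The collagen-binding alpha chains ITGA11 and ITGA10 therefore changed in opposite directions.

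Growth factor systems held members that rose and members that fell. In the TGF-beta list 8 of 21 genes were higher and 5 lower (median 0.68, background 13.6% higher, 12.1% lower). Among the ligands TGFB3 had 260.3, 229 and 315 CPM in P3 cells, against 19.6, 13.7 and 25.2 CPM in tissue (log2 fold change 3.78 ± 0.28, adjusted p = 9.15e-07), whereas TGFB1 had 7.12, 6.51 and 10.5 CPM in P3 cells, against 58.5, 37.7 and 42.8 CPM in tissue (log2 fold change -2.52 ± 0.25, adjusted p = 6.04e-06) and TGFB2 a log2 fold change of -1.39 ± 0.30 (adjusted p = 0.0105 without P3 149, edgeR). The coreceptor TGFBR3 had 59.2, 45.98 and 24.9 CPM in P3 cells, against 843, 656 and 572 CPM in tissue (log2 fold change -3.99 ± 0.32, adjusted p = 1.49e-06). The inhibitor SMAD7, itself a target of the pathway, rose (1.42 ± 0.18). INHBB, an activin subunit, had 25.8, 24.3 and 22.1 CPM in P3 cells, against 0.325, 0.315 and 0.546 CPM in tissue (log2 fold change 5.90 ± 0.48, adjusted p = 1.51e-06).

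Of 18 secreted Wnt modulators 7 were higher and 3 lower (background 13.6% higher, 12.1% lower), the lower share being near that of all tested genes. SFRP2, a secreted frizzled-related antagonist, had 127, 272 and 378 CPM in P3 cells, against 0.0976, 0.105 and 1.46 CPM in tissue (log2 fold change 8.82 ± 0.89, adjusted p = 7e-06, 11.27 without tissue 5), and SFRP4 a log2 fold change of 6.87 ± 0.51. DKK3, a divergent dickkopf protein, had 671, 692 and 646 CPM in P3 cells, against 6.89, 16.9 and 7.22 CPM in tissue (log2 fold change 6.02 ± 0.60, adjusted p = 6.8e-06). Other antagonists fell. FRZB had 2.88, 3.67 and 1.67 CPM in P3 cells, against 418, 52.7 and 149.6 CPM in tissue (log2 fold change -6.24 ± 1.06, adjusted p = 0.000325, -5.23 without tissue 2), and DKK1 was nearly absent from P3 cells, with 0, 0 and 0.0238 CPM in P3 cells, against 27.02, 5.08 and 28.5 CPM in tissue and a single read in that group. In the insulin-like growth factor system, 4 of 12 genes were higher and 2 lower, the lower share again near that of all tested genes. IGFBP2 had 1230.2, 433 and 335 CPM in P3 cells, against 0.325, 1.51 and 0.758 CPM in tissue (log2 fold change 9.60 ± 0.81, adjusted p = 2.01e-06, 8.80 without P3 147 and 10.24 without tissue 3) and IGFBP4 160.0, 176 and 242 CPM in P3 cells, against 1.56, 2.63 and 2.82 CPM in tissue (log2 fold change 6.36 ± 0.82, adjusted p = 4.06e-05). IGFBP6 fell instead (-3.13 ± 0.26), and IGF1 was lower (-1.61 ± 0.36), a call lost without P3 148 (adjusted p = 0.0124, edgeR).

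Acute phase and innate defence genes were far lower in P3 cells, in 12 of 20 members, with 2 higher and a median log2 fold change of -5.44. Their summed level was 487 to 1230 CPM in P3 cells, against 62578 to 151730 CPM in tissue. SAA3, a serum amyloid A protein made at sites of inflammation, was the most abundant gene of the list in tissue, with 256, 175 and 50.6 CPM in P3 cells, against 36241, 96627 and 35496 CPM in tissue (log2 fold change -8.45 ± 0.74, adjusted p = 2.58e-06, -7.80 without tissue 3). LCN2, lipocalin 2, which withholds iron from bacteria (chromosome 1, 268609975-268614651), had 14.4, 8.19 and 68.4 CPM in P3 cells, against 2307, 5302 and 2911 CPM in tissue (log2 fold change -6.85 ± 0.76, adjusted p = 1.36e-05, -8.28 without P3 149). SERPINA1, alpha-1 antitrypsin (chromosome 7, 115604282-115616915), had 0.0317, 0.0231 and 0.0477 CPM in P3 cells, against 1687, 123 and 195 CPM in tissue (log2 fold change -14.10 ± 2.46, adjusted p = 0.000406, -12.05 without tissue 2). Near-identical copies make the reads of single serum amyloid genes uncertain. SAA1 had 41.95, 25.5 and 0.143 CPM in P3 cells, against 17.3, 12085 and 5607 CPM in tissue, its groups overlapped, and it was not called by edgeR (adjusted p = 0.0358), though DESeq2 called it lower (log2 fold change -8.05, adjusted p = 0.000316).

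LBP, which hands lipopolysaccharide to its receptor, had 0.475, 0.415 and 0.381 CPM in P3 cells, against 835, 1844 and 1356 CPM in tissue (log2 fold change -11.63 ± 0.87, adjusted p = 1.02e-06), and CP, the copper-carrying ferroxidase ceruloplasmin, had 0.380, 0.646 and 0.405 CPM in P3 cells, against 1497, 936 and 1338 CPM in tissue (log2 fold change -11.34 ± 0.77, adjusted p = 6.74e-07). Both were below 1 CPM in all P3 libraries. CLU, the extracellular chaperone clusterin, had 605, 368 and 228 CPM in P3 cells, against 15172, 19724 and 12642 CPM in tissue (log2 fold change -5.31 ± 0.41, adjusted p = 1.1e-06), and SOD2, the mitochondrial superoxide dismutase that NF-kB induces, had 259, 183 and 99.2 CPM in P3 cells, against 4659.8, 14867 and 6098 CPM in tissue (log2 fold change -5.57 ± 0.52, adjusted p = 4.47e-06, -4.90 without tissue 3). PTX3 and PLTP were the members called higher, both at low levels, at log2 fold changes of 3.26 ± 0.55 and 2.69 ± 0.76, and PLTP lost its call without any 1 of the 6 libraries (adjusted p = 0.0119 to 0.0414, edgeR). In complement, 10 of 18 genes were lower and C2 was higher (2.52 ± 0.37). C1S, a protease of the classical pathway, had 134, 141 and 126 CPM in P3 cells, against 425, 942 and 349.9 CPM in tissue (log2 fold change -2.10 ± 0.34, adjusted p = 0.000218), SERPING1, its inhibitor, fell by 2.67 on the log2 scale, and CFB, of the alternative pathway, had 1.203, 0.807 and 0.405 CPM in P3 cells, against 20.7, 59.2 and 18.96 CPM in tissue (log2 fold change -5.38 ± 0.56, adjusted p = 8.32e-06, -4.64 without tissue 3).

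Macrophages and neutrophils are known to express several of these genes. Of the 16 macrophage and leukocyte markers tested, 3 were lower in P3 cells (CD14, MARCO and LAPTM5) and none was higher (background 12.1% lower, 13.6% higher). The summed level of that list was 17.0 to 18.6 CPM in P3 cells, against 66.8 to 80.0 CPM in tissue. The defining markers PTPRC, CD163, C1QB, C1QC and CD79B had no read in P3 cells and were detected in tissue replicate 5 alone, at 0.0910, 0.182, 0.728, 1.24 and 0.394 CPM. Their part in the innate defence result was not tested.

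Inflammatory signalling was less uniform than the acute phase genes. Of 25 cytokines and chemokines 8 were higher and 3 lower (median 0.93, background 13.6% higher, 12.1% lower), the lower share being near that of all tested genes. CCL20, a chemokine for dendritic and T cells, had 0.0950, 0.231 and 0.0715 CPM in P3 cells, against 42.2, 208 and 54.9 CPM in tissue (log2 fold change -9.50 ± 0.79, adjusted p = 1.85e-06, -10.21 without P3 148 and -8.44 without tissue 3). CCL2, a chemokine for monocytes, went the opposite way, with 31.7, 59.7 and 25.4 CPM in P3 cells, against 0, 1.72 and 0.941 CPM in tissue (log2 fold change 5.47 ± 0.79, adjusted p = 0.000102, 4.86 without tissue 2 and 6.33 without tissue 3). CSF1, LIF and IL11 were higher as well, at log2 fold changes of 1.41 ± 0.26, 3.69 ± 0.43 and 4.24 ± 0.80 (3.52 without P3 149 for IL11). In the NF-kB list 6 of 19 genes were lower and ICAM1 was higher (1.30 ± 0.31). Without P3 147, 148 or 149 or tissue 3 the lower count was 3, and ICAM1 lost its call without P3 147 or 149 or tissue 2 or 5 (adjusted p = 0.0101 to 0.0228, edgeR). The feedback inhibitor NFKBIA had 16.97, 17.6 and 12.1 CPM in P3 cells, against 57.6, 90.2 and 63.3 CPM in tissue (log2 fold change -2.18 ± 0.22, adjusted p = 7.69e-06), while the subunits RELA and NFKB2 were not called, with log2 fold changes of -0.50 ± 0.13 and 0.33 ± 0.16.

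The promoter of CCL20 is shown because this gene had the largest fall of the chemokine list and its window holds the NF-kB consensus (in capitals). It was chosen after its values were seen (Sscrofa11.1 chr15:129172493-129172792, plus strand, RefSeq).
CCL20: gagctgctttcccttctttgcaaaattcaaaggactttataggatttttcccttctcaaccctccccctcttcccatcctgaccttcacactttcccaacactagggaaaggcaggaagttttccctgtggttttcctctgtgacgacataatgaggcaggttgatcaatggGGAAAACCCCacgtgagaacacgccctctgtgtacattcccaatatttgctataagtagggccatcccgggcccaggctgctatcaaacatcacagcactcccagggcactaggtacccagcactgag
The match began 78 bases before the gene start. On both strands this consensus was found in 2485 of 19509 promoters read (12.7%). It was in 233 of 1946 genes higher (12%) and in 181 of 1581 genes lower in P3 cells (11.4%). By list it was in 3 of 19 promoters of the acute phase list, 9 of 19 of the NF-kB list and 4 of 28 of the cartilage matrix list. Lists that rose held it too, in 4 of 19 smooth muscle promoters and 3 of 18 of the fibrous collagens. The MYL9 window shown above also held a match, left unmarked there. As for the CArG box, a match says nothing about binding in these cells.

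Matrix proteases changed in both directions. Of 21 matrix metalloproteinases and inhibitors, 7 were higher and 8 lower (median -0.64). The collagenases MMP13, with 1.77, 2.19 and 5.82 CPM in P3 cells, against 299, 1698 and 193 CPM in tissue (log2 fold change -7.80 ± 1.36, adjusted p = 0.000408, -8.52 without P3 149 and -6.23 without tissue 3), and MMP8, with 0.0317, 0.0231 and 0.0953 CPM in P3 cells, against 83.5, 47.9 and 80.2 CPM in tissue (log2 fold change -10.32 ± 0.93, adjusted p = 3.44e-06, -11.17 without P3 149), were lower in P3 cells. MMP13 was highest in tissue replicate 3. MMP2, a gelatinase, had 1095, 1013 and 1059 CPM in P3 cells, against 33.04, 361 and 78.9 CPM in tissue (log2 fold change 2.74 ± 0.71, adjusted p = 0.00592, 4.24 without tissue 3), and MMP14, the membrane-bound protease that activates it, had 931, 1032 and 1060.1 CPM in P3 cells, against 246, 501 and 222 CPM in tissue (log2 fold change 1.64 ± 0.34, adjusted p = 0.00148). Both calls were sensitive to the libraries fitted, that of MMP2 being lost without any but tissue 3 (adjusted p = 0.013 to 0.027, edgeR), with the 6 inner zone libraries alone (0.0247) and without the cartilage libraries (0.0128), and that of MMP14 without tissue 2 (0.0106). The inhibitor TIMP3, which stays bound to the matrix, had 251, 224 and 95.2 CPM in P3 cells, against 5505, 2038 and 4742 CPM in tissue (log2 fold change -4.43 ± 0.48, adjusted p = 1.18e-05), while TIMP1 and TIMP2 were not called. The ADAMTS proteases rose in 9 of 17 members with none called lower (median 1.52). ADAMTS2, the procollagen N-proteinase, had 291, 237 and 220.1 CPM in P3 cells, against 29.3, 27.7 and 33.95 CPM in tissue (log2 fold change 3.04 ± 0.34, adjusted p = 1.52e-05), and the aggrecanases ADAMTS4 and ADAMTS5 had overlapping groups and were not called (adjusted p = 0.218 and 0.341).

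**Figure D3:**
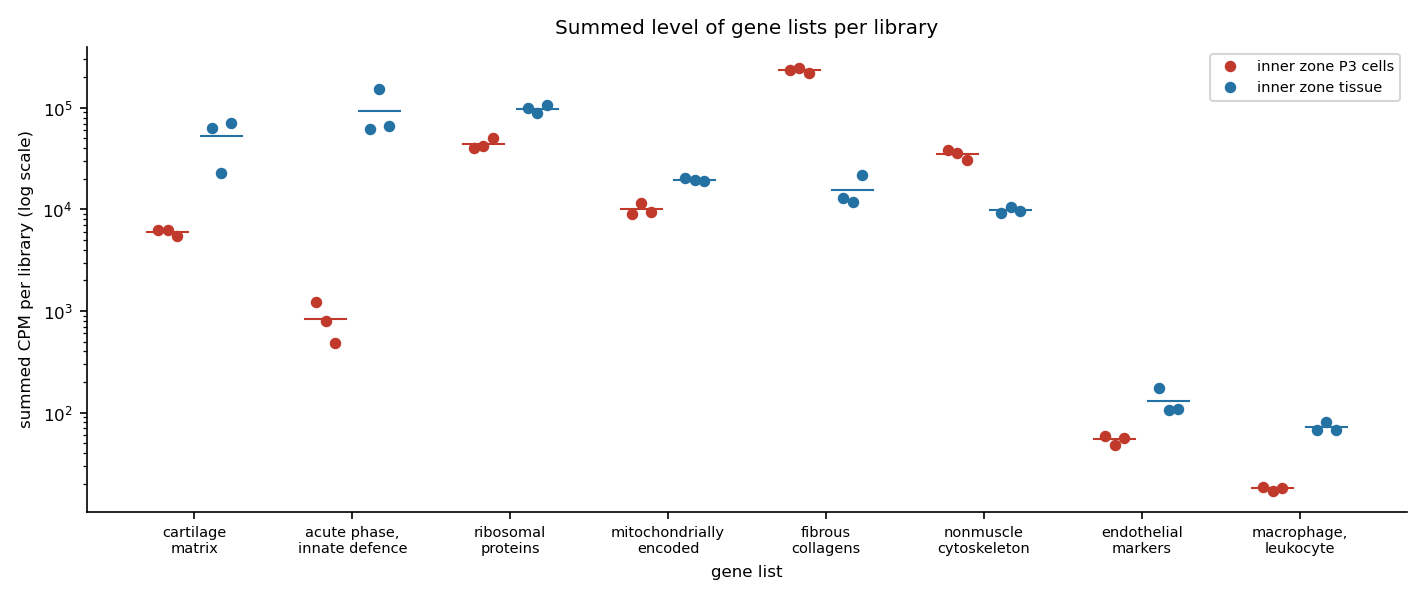
Summed level of 8 gene lists in each library, in CPM on a log scale, with inner zone P3 cells in red at the left and inner zone tissue in blue at the right, a point per library and a line at the mean of 3. The acute phase sum was 487 to 1230 CPM in P3 cells, against 62578 to 151730 CPM in tissue, and the groups did not overlap in any of the 8 lists. The 8 lists were picked from all lists. Sums of others overlapped, such as TGF-beta signalling (2060 to 2373 CPM in P3 cells, against 2310 to 2756 CPM in tissue).

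Iron and redox genes were in part lower in P3 cells. None of the 14 iron and metal genes was higher and 8 were lower (median -2.09). FTH1 and FTL, the chains of ferritin, which stores iron, had 2393, 2269 and 1881 CPM in P3 cells, against 12652, 17717 and 12301 CPM in tissue for FTH1 (log2 fold change -2.71 ± 0.25, adjusted p = 4.49e-06) and a log2 fold change of -2.73 ± 0.26 for FTL. MT2A, a metallothionein that binds zinc and copper, had 6.87, 6.85 and 1.95 CPM in P3 cells, against 471, 575 and 506 CPM in tissue (log2 fold change -6.63 ± 0.47, adjusted p = 7.93e-07). TFRC, the transferrin receptor, whose transcript iron shortage is known to stabilise, was lower too, at -1.43 ± 0.32, though not without P3 147 or 148 or tissue 5 (adjusted p = 0.0107 to 0.0146, edgeR). Of 24 antioxidant enzymes, 8 were lower and none was higher. GPX1 and GPX3, glutathione peroxidases, had log2 fold changes of -2.84 ± 0.25 and -4.54 ± 0.59, and SOD3, the extracellular superoxide dismutase, had 402, 268 and 172 CPM in P3 cells, against 2606, 3113 and 2363 CPM in tissue (log2 fold change -3.26 ± 0.33, adjusted p = 6.66e-06).

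Several genes of energy metabolism were lower. Of 20 glycolysis genes 7 were lower and none was higher (median -0.83). GAPDH had 1217, 1016 and 1045 CPM in P3 cells, against 3533, 4130.1 and 5366 CPM in tissue (log2 fold change -1.99 ± 0.23, adjusted p = 1.78e-05), and LDHA and PFKFB3 had log2 fold changes of -1.72 ± 0.21 and -2.41 ± 0.27. Of 23 hypoxia-responsive genes 7 were lower and CA12, a carbonic anhydrase, was higher (5.49 ± 0.69, 6.18 without tissue 3). NDUFA4L2 had 2.88, 2.86 and 3.74 CPM in P3 cells, against 329, 207 and 479 CPM in tissue (log2 fold change -6.74 ± 0.49, adjusted p = 8.35e-07). In the citric acid cycle 4 of 23 genes were higher, a share near the 13.6% of all tested genes, and SDHC was lower. CS, citrate synthase, was the steepest with 186, 177 and 202 CPM in P3 cells, against 38.96, 50.1 and 48.2 CPM in tissue (log2 fold change 2.04 ± 0.17, adjusted p = 1.51e-06). Nuclear genes of oxidative phosphorylation were lower in 8 of 57 and higher in none, a lower share close to the 12.1% of all tested genes. Of 13 mitochondrially encoded genes 8 were lower and none was higher, with a summed level of 9055 to 11506 CPM in P3 cells, against 18886 to 20466 CPM in tissue. ATP6, a subunit of the ATP synthase, had 396, 551 and 521 CPM in P3 cells, against 2631, 2451 and 2567 CPM in tissue (log2 fold change -2.38 ± 0.24, adjusted p = 7.88e-06), while ND5 was not called (adjusted p = 0.0819).

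Genes of sterol synthesis fell nearly as a block, with 21 of 27 cholesterol and fatty acid genes lower and a median of -1.47. HMGCS1, which makes the substrate of the rate-limiting reductase, had 56.9, 57.1 and 77.1 CPM in P3 cells, against 374, 369 and 346 CPM in tissue (log2 fold change -2.51 ± 0.16, adjusted p = 5.11e-07). The regulators SREBF2 and INSIG1 fell as well, with log2 fold changes of -1.47 ± 0.15 and -2.03 ± 0.30. ACACA, the first enzyme of fatty acid synthesis, rose (2.28 ± 0.20).

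The protein synthesis machinery moved in opposite directions. Of 66 genes of cytosolic ribosomal proteins and associated factors 46 were lower and none was higher (median -1.23), with a summed level of 40411 to 50114 CPM in P3 cells, against 88515 to 105890 CPM in tissue. RPS2, of the small subunit, had 1871, 1860.1 and 2026 CPM in P3 cells, against 7071, 5291 and 6724 CPM in tissue (log2 fold change -1.73 ± 0.23, adjusted p = 4.69e-05). Reads of ribosomal protein genes are shared with processed pseudogenes, so that single values are uncertain. Aminoacyl-tRNA synthetases and targets of ATF4 rose in 15 of 28 with none called lower (median 1.03). WARS, the tryptophanyl-tRNA synthetase, had 343, 419 and 589 CPM in P3 cells, against 63.2, 89.6 and 85.8 CPM in tissue (log2 fold change 2.50 ± 0.24, adjusted p = 5.34e-06), and SHMT2, a mitochondrial enzyme of serine use, had 264, 291 and 359 CPM in P3 cells, against 74.2, 103 and 103 CPM in tissue (log2 fold change 1.70 ± 0.18, adjusted p = 8.8e-06). ATF4 itself had 641, 666 and 599 CPM in P3 cells, against 703, 716 and 743 CPM in tissue and was not called (adjusted p = 0.278). Endoplasmic reticulum chaperones were mostly not called, with 1 of 24 higher and 2 lower.

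Cell cycle genes were higher in P3 cells, in 20 of 44 with none called lower (median 1.14), and in 13 without tissue 2. CCNB1, the mitotic cyclin B1, had 58.7, 44.7 and 36.1 CPM in P3 cells, against 6.47, 7.29 and 6.98 CPM in tissue (log2 fold change 2.75 ± 0.58, adjusted p = 0.00158). PLK1, a kinase of mitosis, had 43.3, 32.02 and 23.2 CPM in P3 cells, against 3.06, 3.71 and 3.64 CPM in tissue (log2 fold change 3.24 ± 0.65, adjusted p = 0.00109), and CENPF, of the kinetochore, had 70.00, 49.2 and 31.1 CPM in P3 cells, against 4.72, 2.91 and 4.46 CPM in tissue (log2 fold change 3.63 ± 0.56, adjusted p = 0.000163). These mitotic genes were highest in replicate 147 among P3 cells. The DNA replication genes PCNA, MCM2, MCM3 and MCM4 were not called, with a log2 fold change of -0.44 ± 0.25 for PCNA. The cell cycle inhibitor CDKN1A, p21, was also higher, with 80.96, 81.99 and 67.4 CPM in P3 cells, against 17.6, 30.7 and 19.5 CPM in tissue (log2 fold change 1.77 ± 0.33, adjusted p = 0.000675). Interferon-stimulated genes rose in 7 of 24 (4 without P3 148) and GBP2 fell. IFIT1 had 19.5, 23.2 and 21.3 CPM in P3 cells, against 3.32, 1.65 and 5.37 CPM in tissue (log2 fold change 2.63 ± 0.51, adjusted p = 0.000825), while ISG15 was not called by edgeR (adjusted p = 0.0171) but was called lower by DESeq2 (log2 fold change -1.68, adjusted p = 0.0021).

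Markers of other cell types were checked because they bear on what the libraries held. Over all tested genes 13.6% were higher and 12.1% lower, and most marker lists are too short to be told from these shares. Endothelial markers were lower in 2 of 13 (TIE1 and ERG), near the share over all genes, and higher in none. Their sum was 48.0 to 58.7 CPM in P3 cells, against 105 to 176 CPM in tissue. ERG, which chondrocytes are also known to express, made up most of that sum, with 52.5, 34.8 and 50.6 CPM in P3 cells, against 161, 95.5 and 92.8 CPM in tissue. CDH5, the cadherin that defines endothelium, had no read in P3 cells and at most 0.0607 CPM in tissue. Of 9 pericyte markers, 3 were higher and 3 lower, the steepest being RGS5, with 0.0317, 0.0231 and 0.0715 CPM in P3 cells, against 404, 9.42 and 81.5 CPM in tissue (log2 fold change -11.79 ± 1.79, adjusted p = 0.000142, -12.40 without P3 149 and -9.95 without tissue 2). RGS5 was lowest in tissue replicate 3 among the tissue libraries. Of 6 synovial lining markers 4 were lower, a larger share than over all genes, and none was higher. Their sum was 766 to 1218 CPM in P3 cells, against 2146 to 4458 CPM in tissue. Of 8 adipocyte markers 1 was higher and 2 lower, of 6 skeletal muscle markers 2 were higher and 3 lower, and of 6 glial and nerve markers 1 was higher. HBQ1, the single red blood cell marker tested, was higher, with 2.53 to 2.88 CPM in P3 cells, against 0.607 to 0.736 CPM in tissue. The part of these cell types in the results above was not tested.

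The outer zone offered the same contrast in 5 other libraries, 2 of outer zone P3 cells (147 and 148) and 3 of outer zone tissue (2, 3 and 6), and 2617 genes were called there (16.7%, 8.36% higher and 8.3% lower). Of the inner zone DEGs, 2337 were called in the outer zone in the same direction and none in the opposite one. The remaining 1696 were not called in the outer zone, and 1664 of them had the same sign in the outer zone. The outer zone had fewer P3 libraries, and a difference in calls is no test of a difference between the zones. The cartilage matrix list had 17 of 29 members lower in the outer zone, the smooth muscle list 13 of 19 higher, the acute phase list 11 of 20 lower, the cholesterol list 16 of 27 lower and the ribosomal list 25 of 66 lower. The cell cycle list had 1 of 44 members higher and 3 lower in the outer zone.

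**Figure D4:**
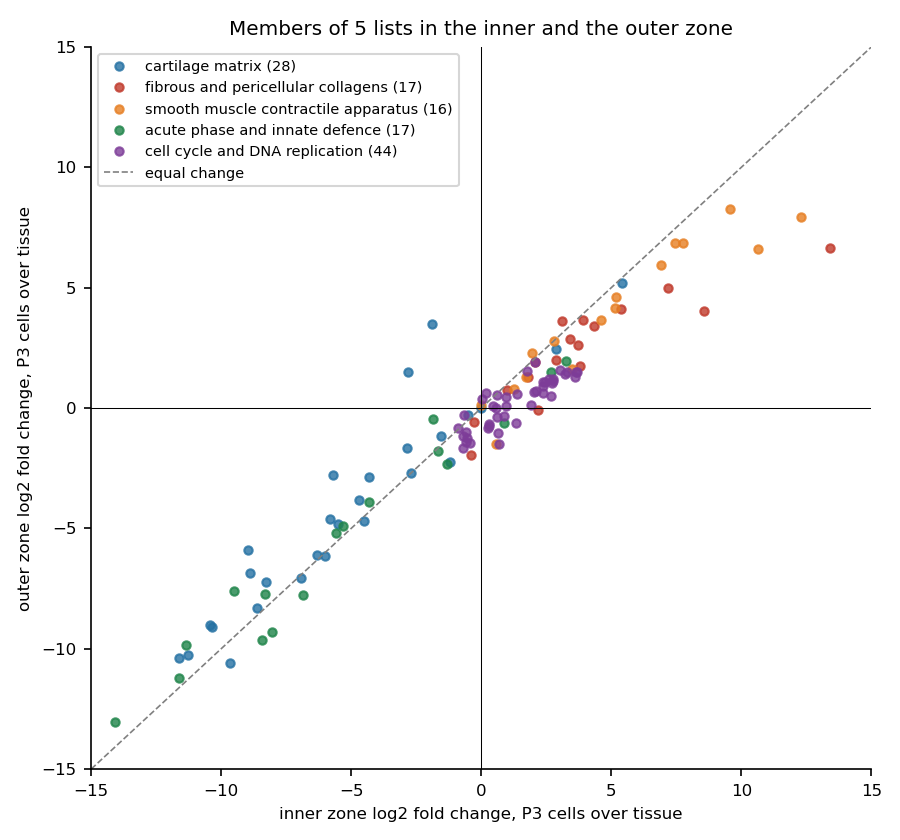
Log2 fold change of P3 cells over tissue in the inner zone (x axis) and in the outer zone (y axis) for tested members of 5 gene lists with more than 3 reads in each inner zone group (number of points in the legend), the dashed line marking equal change. Smooth muscle and fibrous collagen members lay at the upper right, with COL1A1 at 13.43 in the inner and 6.67 in the outer zone, and cartilage matrix and acute phase members at the lower left.

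The difference between the zones was tested as an interaction, inner zone change minus outer zone change. In the fit of all 14 libraries 0 of 15707 genes (0%) passed (edgeR, quasi-likelihood), with 1173 at an unadjusted p under 0.05. With the replicate number as a block and without the cartilage libraries 20 genes were called, all with a higher log2 fold change in the inner zone, while leaving out the cartilage libraries without the block gave 0. DESeq2 called 17 genes and a fit without outer tissue replicate 2 called 15. Another scaling, and leaving out any other meniscus tissue library or any inner zone P3 library, gave 0. The 3 fits with calls were singled out because they called genes, so passing in all of them is a description only. The 3 genes COL1A1, GUCY1A3 and PMAIP1 passed in all 3 of these fits. No other gene passed in all of them, so that the set of genes depended on the fit.

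COL1A1 was the most abundant of these 3 genes in every P3 library. Its log2 fold change was 13.43 ± 1.02 in the inner and 6.67 ± 0.81 in the outer zone. P3 cells held 97321 to 110523 CPM (inner) and 71737 and 81998 CPM (outer), whereas tissue held 4.88 to 17.3 CPM (inner) and 165, 674 and 1433 CPM (outer). The interaction was 6.40 with the block and no cartilage libraries (adjusted p = 0.00319), 6.76 in the main fit (adjusted p = 0.458), 6.73 by DESeq2 (adjusted p = 2.23e-11) and 7.24 without outer tissue replicate 2 (adjusted p = 0.0038). Outer tissue replicate 2 had the lowest COL1A1 of the outer tissue libraries. GUCY1A3, a subunit of the nitric oxide receptor guanylate cyclase, had 13.8, 16.9 and 11.7 CPM in P3 cells, against 0, 0.0701 and 0 CPM in tissue in the inner zone, and 22.1 and 17.9 CPM in outer zone P3 cells, against 0.405, 6.00 and 2.77 CPM in outer zone tissue. GUCY1A3 lay near 0 reads in inner zone tissue, so the size of its interaction is poorly known. PMAIP1, a BH3-only protein that triggers apoptosis, had 19.9, 26.00 and 25.9 CPM in P3 cells, against 0.228, 0.841 and 0.455 CPM in tissue in the inner zone. In the outer zone it had 21.4 and 29.0 CPM in P3 cells, against 1.70, 7.62 and 7.40 CPM in tissue. Its P3 levels overlapped between the zones, and its tissue levels did not. ACTA2 and NID1 were called in that fit with the block as well, at interactions of 4.53 (adjusted p = 0.00319) and 7.62 (adjusted p = 0.000759), and not in the main fit. So were MCAM and ICAM2, at 6.70 and 7.26. In outer tissue 2, 3 and 6 MCAM had 0.486, 71.1 and 24.4 CPM, and ICAM2 0.121, 15.4 and 7.74 CPM. Of 13 endothelial markers 7 were called lower in P3 cells in the outer zone, against 2 in the inner zone. The part of vessel cells of the outer tissue in the interaction was not tested.

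**Figure D5:**
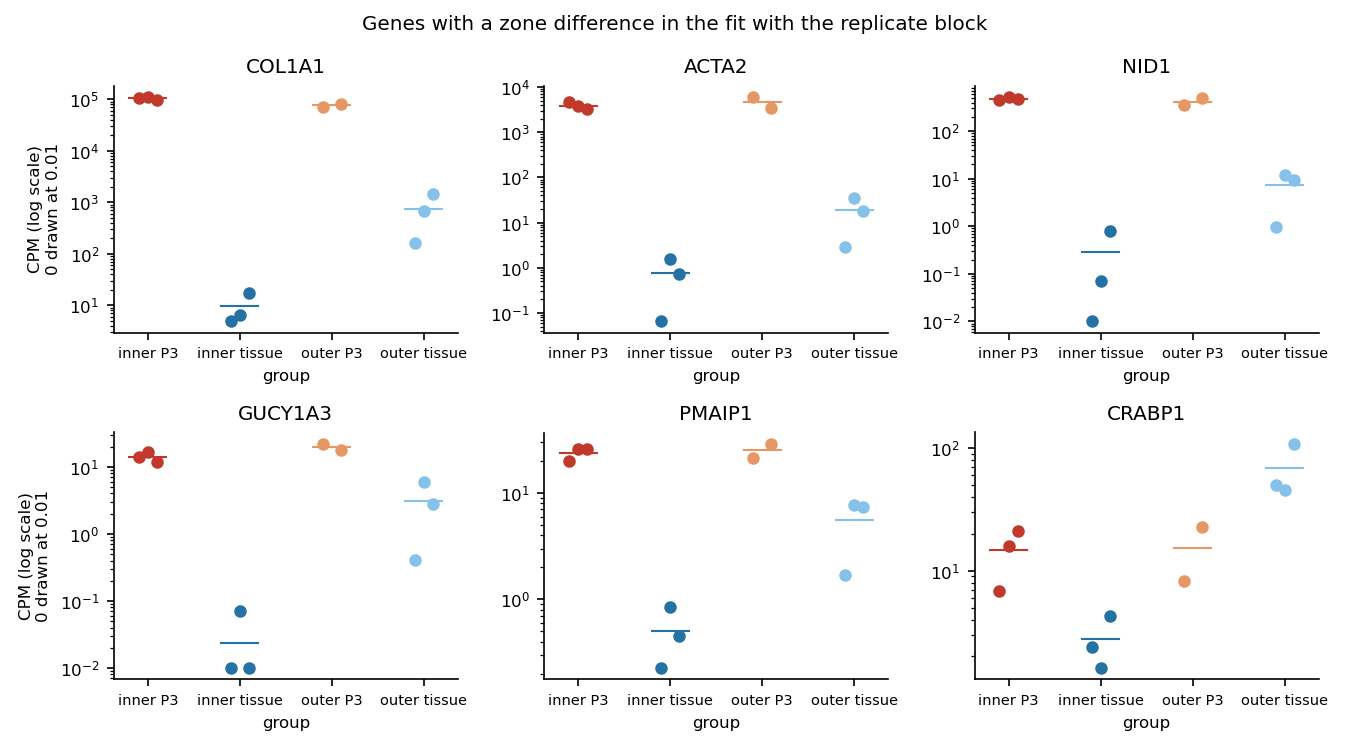
Levels of 6 genes called in the zone by passaging interaction with the replicate block, in CPM on a log scale (0 drawn at 0.01), in inner and outer zone P3 cells and tissue, a point per library and a line at the mean. COL1A1 was 165 to 1433 CPM in outer zone tissue, against 4.88 to 17.3 CPM in inner zone tissue, whereas the P3 cells of both zones lay between 71737 and 110523 CPM.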

How the data were processed

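RNA of cultured explants and of passaged cells was made into poly(A) libraries with a stranded kit. The authors trimmed reads with Trim Galore and cutadapt, mapped them with STAR to Sscrofa11.1, kept unique alignments and deposited raw read counts per gene from HTSeq; tool versions and the strand setting are not given in the sources used here, so reads of a gene and of an antisense partner may be mixed. The 14 libraries were fitted in 1 model with a mean per group by the quasi-likelihood F test of edgeR 4.0.16 (R 4.3.3) with TMM scaling; genes had at least 10 reads in all, and the SE is the log2 fold change over the square root of F. Limma 3.58.1 was loaded with edgeR, and DESeq2 1.42.0 served as an alternative. Symbols were those of the table for 12963 tested genes, those of RefSeq annotation by identifier for 890 and those of the study for 8, while 1846 had none. Identifiers are those of the deposited table. A fold against a group with no read uses 3 reads over the group as its floor and covers counting error only.

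Genes were named by a rule (largest change, highest level, leading members of each of 49 lists, zone interaction, and genes the study measured by PCR), and others were added for their function after their values were seen. The members and lists were chosen with earlier results of these data known. For the zone interaction, libraries of the same number deviated together over 11812 genes (correlations 0.492 and 0.295 for tissue 2 and 3, and 0.231 and 0.265 for cells 147 and 148). The number was therefore fitted as a block in an alternative with 9 coefficients and 2 residual degrees of freedom. The study took its explants of both zones from the same 3 menisci, but the tissue numbers are 2, 3, 5 and 6. A number may thus not stand for a meniscus. Inner tissue 5, outer tissue 6 and inner P3 149 had no partner of the same number. The zone difference in that fit therefore rested on tissue 2 and 3 and cells 147 and 148. Scaling, filter, test and libraries were varied 1 at a time, except that the block was fitted to the 11 meniscus libraries, without cartilage. The cartilage libraries entered the filter on reads and the estimate of spread and were tested against no group.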

Additional observations from a re-analysis of the deposited data

Results flagged for a closer look

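In the edgeR fit of all 14 libraries no gene passed the test of a difference in change between the inner and the outer zone. Calls arose under the replicate block (fitted without the cartilage libraries), DESeq2 and the fit without outer tissue replicate 2. COL1A1, GUCY1A3 and PMAIP1 passed in all 3 of these fits, which were singled out because they called genes. Another scaling, and leaving out any other meniscus tissue library or any inner zone P3 library, called none. The interaction with the block was 6.40 for COL1A1 (adjusted p = 0.00319, edgeR), 6.00 for GUCY1A3 (adjusted p = 0.00585) and 2.95 for PMAIP1 (adjusted p = 0.00596), each a larger rise in the inner zone. In the fit of all libraries the adjusted p was 0.458 for COL1A1 and 0.541 for GUCY1A3 and PMAIP1. With groups of 3 libraries no single library could be tested as standing apart.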

How the results depend on the processing

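No paired analysis was possible because inner zone P3 cells (147, 148, 149) and inner zone tissue (2, 3, 5) share no number. The count of DEGs stayed between 3462 and 4398 (main 4033) under 3 other scalings, 2 other filters, fewer libraries, DESeq2 and leaving out each library in turn (3462 without P3 148 to 4001 without tissue 3). Upper quartile scaling shifted the median by -0.09, with 1939 higher and 2087 lower. Testing against the 2-fold limit itself left 1894 genes (996 higher, 898 lower), all among the DEGs, since that test is stricter by construction. The interaction had 0 calls, 0 without the cartilage libraries, 20 with the replicate block and without them, 17 by DESeq2 and 15 without outer tissue replicate 2. It had 0 with another scaling and on leaving out any other meniscus tissue library or any inner zone P3 library. The cause of these differences was not tested. Of 170 DEGs named with a fold change, 27 lost their call under some setting and none changed sign; 32 moved by more than 1.5-fold when a library was left out, and MMP2 had no adjusted p by DESeq2. Calls were gained by SAA1, MYH11 and ISG15 (DESeq2) and by SRF and WWTR1 (without tissue 3). Of the named genes that were not called, some changed sign when a library was left out, with log2 fold changes of -0.96 to 0.40 (ADAMTS5), -0.30 to 0.11 (YAP1), -0.48 to 0.18 (COL6A3), -0.12 to 1.09 (LUM) and -0.38 to 0.14 (P4HA1). The median of the macrophage and leukocyte list ranged from -3.26 to 0 (0 without tissue 5). The median of the skeletal muscle list was -1.40 with the 6 libraries alone. Depth limits genes near 0 reads: 194 genes higher and 130 lower had at most 3 reads in the other group.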

Other observations

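Genes of several groups with no place in the accounts above also differed between inner zone P3 cells and inner zone tissue, against 13.6% higher and 12.1% lower over all tested genes. Among ion channels and water channels, 4 of 19 were higher and 6 lower. AQP3, a channel for water and glycerol, had 1.55, 0.854 and 0.381 CPM in P3 cells, against 475, 61.3 and 503 CPM in tissue (log2 fold change -8.58 ± 1.00, adjusted p = 2.03e-05), and TRPV4, the osmosensitive calcium channel of chondrocytes, had 5.79, 7.17 and 6.05 CPM in P3 cells, against 139, 53.6 and 109 CPM in tissue (log2 fold change -3.99 ± 0.46, adjusted p = 1.91e-05). GJA1, the gap junction protein connexin 43, had 1000.1, 1022 and 804 CPM in P3 cells, against 132, 397 and 165 CPM in tissue (log2 fold change 2.03 ± 0.38, adjusted p = 0.000655, 2.67 without tissue 3). PIEZO1, a stretch-activated channel, had 150.3, 159 and 147 CPM in P3 cells, against 82.2, 73.04 and 86.6 CPM in tissue and stayed under the 2-fold limit (log2 fold change 0.91 ± 0.16), while PIEZO2 rose (1.48 ± 0.30).

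Prostaglandin genes were split, with 4 of 13 higher and 3 lower. PTGS2, the inducible cyclooxygenase, had 46.2, 47.8 and 33.2 CPM in P3 cells, against 2.86, 10.8 and 10.5 CPM in tissue (log2 fold change 2.40 ± 0.50, adjusted p = 0.0014), while PTGES, the terminal synthase of prostaglandin E2, had 29.98, 19.5 and 26.1 CPM in P3 cells, against 109.6, 229 and 134 CPM in tissue (log2 fold change -2.65 ± 0.36, adjusted p = 5.78e-05). Of 16 mesenchymal progenitor surface markers 5 were higher and none lower, and 3 were higher on leaving out any library. THY1, CD90, had 1009, 716 and 587 CPM in P3 cells, against 71.6, 77.9 and 99.5 CPM in tissue (log2 fold change 3.21 ± 0.36, adjusted p = 1.47e-05), while NT5E, CD73, and ENG, CD105, were not called (log2 fold changes -0.54 ± 0.28 and 0.24 ± 0.22). Of 35 HOX and limb position genes 5 were higher and 7 lower, and their share of higher members, like that of immediate early and lysosomal genes given next, was close to the share over all genes. HOXA10 had 8.04, 8.00 and 6.46 CPM in P3 cells, against 55.2, 19.5 and 47.2 CPM in tissue (log2 fold change -2.44 ± 0.36, adjusted p = 0.000117), and the genes that rose were all below 2 CPM on average in P3 cells. Of 24 immediate early genes 3 were higher and 3 lower, and IER3, a stress-induced survival gene, had 63.6, 59.96 and 47.8 CPM in P3 cells, against 174, 385 and 213 CPM in tissue (log2 fold change -2.17 ± 0.26, adjusted p = 2.29e-05). Of 14 antigen presentation genes 2 were higher (TAP1 and TAP2), again near the share over all genes, and 4 lower (SLA-11, TAPBP, PSMB10 and SLA-DMB). SLA-11, the most abundant member, had 117, 112 and 83.5 CPM in P3 cells, against 417, 340 and 364 CPM in tissue. TAP2, a peptide transporter, had the steepest rise with 58.1, 31.4 and 36.9 CPM in P3 cells, against 3.25, 7.15 and 4.46 CPM in tissue (log2 fold change 3.09 ± 0.36, adjusted p = 1.9e-05). Of 30 lysosomal genes 4 were higher and 2 lower, with CTSD, cathepsin D, at 941, 947 and 734 CPM in P3 cells, against 4627, 6625 and 4449 CPM in tissue (log2 fold change -2.58 ± 0.31, adjusted p = 2.64e-05).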
